A study of Mus musculus with 2 samples.

Results

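Integrins are surface receptors built from 1 alpha and 1 beta chain, and the 10 chain genes described here, Itgae, Itgb7, Itga4, Itgb1, Itgal, Itgb2, Itgav, Itgb3, Itgb8 and Itga6, encode the chains of the dimers best known from T cells. They were chosen by name, and every probe set annotated to exactly 1 of these symbols was taken, which gave 27 probe sets for 10 of the 18193 genes on the array. The values come from sorted CD4+ T cells of DEREG mice, a strain in which the Foxp3 promoter drives green fluorescent protein (GFP). DEREG mice are known to carry this GFP fused to a diphtheria toxin receptor, so both populations hold the same transgene, and the gate reads promoter activity rather than Foxp3 protein. The GFP-positive sample, labelled CD4+GFP+FoxP3+, and the GFP-negative sample, labelled CD4+GFPnegFoxP3neg, were each hybridised to 1 Affymetrix Mouse Genome 430 array, with a stated sort purity above 99%. The sources used here name no organ, age or sex, no number of mice and no treatment. With 1 array per population there is no replicate and no test, and every difference below is one between these 2 arrays.

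A chain reaches the surface only as a dimer, so the partner with the smaller supply can limit the receptor. AlphaE (CD103) pairs only with beta7 and binds E-cadherin on epithelial cells. Alpha4 pairs with beta7 to bind MAdCAM-1 on gut vessels and with beta1 to bind VCAM-1 and fibronectin. AlphaL pairs with beta2 as LFA-1, which binds ICAMs on endothelium and antigen-presenting cells. Alpha6 with beta1 binds laminins. AlphaV pairs with several beta chains, of which beta8 is known for releasing active TGF-beta from its latent form, and CD103 is known as a marker of a subset of mouse regulatory T cells.

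Values are MAS5 signals, a linear intensity per probe set, which cannot be compared between probe sets because probes bind with different strength. A signal floor of 58.14 was taken from genes restricted to other tissues, called background genes here. A difference is log2 GFP-positive minus log2 GFP-negative, and where 1 signal lay under the floor the floor replaced it, so that the fold is a lower bound. Of the 27 probe sets, 13 were above the floor on both arrays, 3 on 1 array and 11 on neither. For summaries, each gene was represented by its probe set of the highest mean log2 signal, and 9 of the 10 chains then had a signal above the floor on at least 1 array. Itgb8 did not.

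The arrays were alike in scale but not in every quality measure. The 2% trimmed mean signal was 150.0 on both, and 43.8% of probe sets lay above the floor on the GFP-positive array against 40.7% on the GFP-negative array. The 3′ to 5′ signal ratio of Actb was 5.30 on the GFP-positive array against 3.57 on the GFP-negative array. That of Gapdh was 9.27 on the GFP-positive array against 6.24 on the GFP-negative array. The 76 background genes had a median signal of 30.85 on the GFP-positive array against 11.7 on the GFP-negative array, and 16 of them lay above the floor on the GFP-positive array against 7 on the GFP-negative array. Dim signals of genes not expected in T cells were thus higher on the GFP-positive array, as were several dim values below. The part of this background and of the Actb and Gapdh ratios in the results was not tested. Foxp3 gave signals of 504 on the GFP-positive array against 173 on the GFP-negative array, in the direction of the labels. Its signal was thus above the floor also on the array labelled FoxP3neg, and the reason was not tested. All 6 listed regulatory T cell genes were above the floor on both arrays and higher on the GFP-positive array. They were Foxp3 at 2.91-fold, Il2ra at 1.71, Ctla4 at 1.94, Ikzf2 at 1.97, Tnfrsf18 at 2.76 and Gpr83 at 3.49. The T cell markers Cd3e, Cd3d, Cd3g, Cd4, Cd2, Cd5, Thy1, Cd28 and Cd247, 9 of 10 listed, were all above the floor on both arrays, 7 of these 9 lower on the GFP-positive array, with a median of −0.23 log2. B cell markers were above the floor on at least 1 array in 4 of 11 cases, against 19 of the 76 background genes, and went both ways. Cd79b had 222 on the GFP-positive array against 70.8 on the GFP-negative array, while Cd22 had 98.3 on the GFP-positive array against 235 on the GFP-negative array and Cd74 had 228 on the GFP-positive array against 424 on the GFP-negative array. Cd4 itself had 256.5 on the GFP-positive array against 415 on the GFP-negative array.

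**Figure D1:**
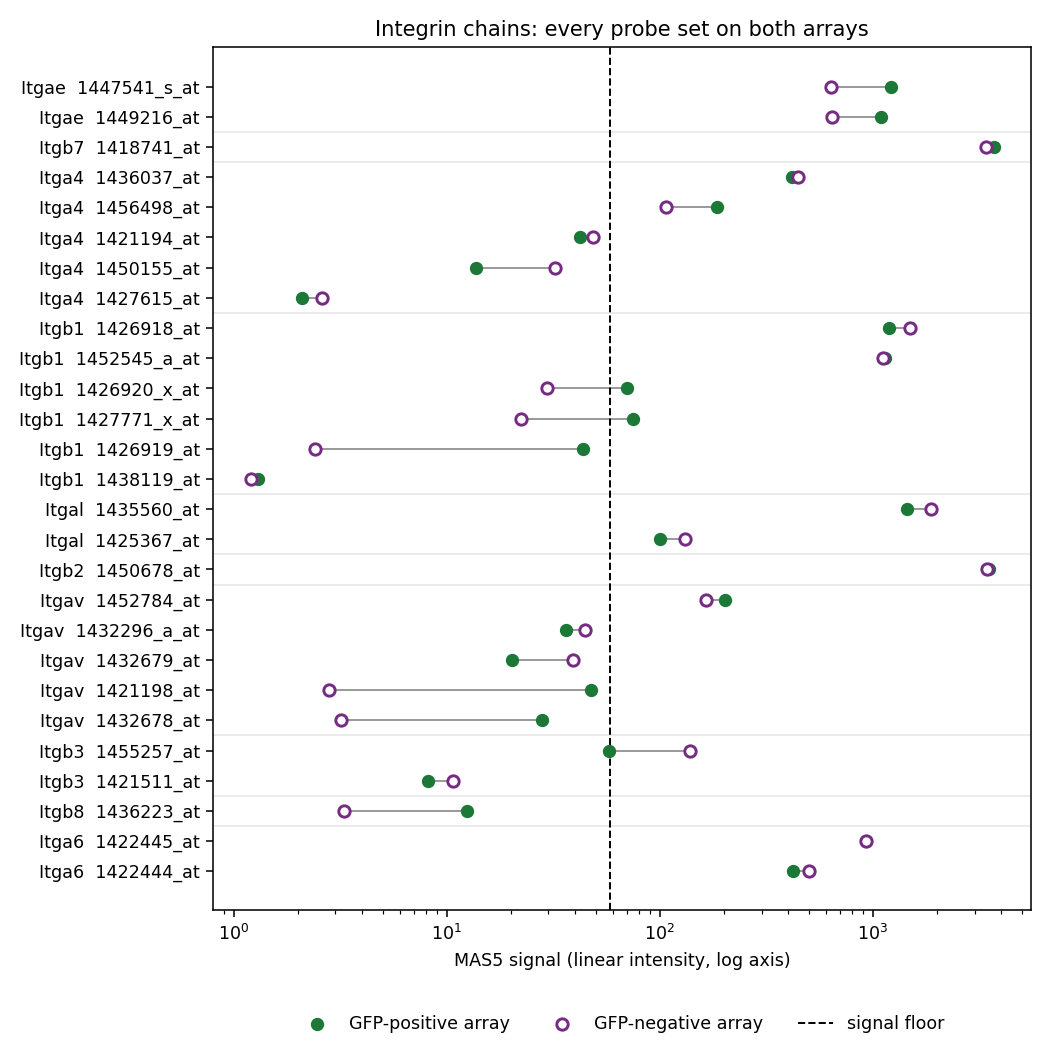
MAS5 signals of all 27 probe sets of the 10 chains on a log axis, with GFP-positive signals as filled green and GFP-negative signals as open purple circles joined by a line, and the floor of 58.14 dashed. Both Itgae probe sets have the GFP-positive signal clearly to the right, while Itgb7, Itgb2 and the brightest Itga6 probe set nearly coincide.

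By the brightest probe set of each gene, the chain genes differed little between the populations apart from Itgae and Itgb3. Itgae was higher in GFP-positive cells, and Itgb3 was lower at low signal. Among the 9 measurable chains, 5 were higher and 4 lower in GFP-positive cells, while 50.8% of all genes were lower. For Itga4, Itgb1 and Itga6 the sign differed between probe sets above the floor on both arrays. The median difference was 0.0020 log2, against −0.0072 over the 10732 genes above the floor. At least 2-fold higher were 0 chains, where 1.96% of all genes were, and at least 2-fold lower was 1 chain, Itgb3, where 1.82% of all genes were. At 1.5-fold, a threshold added after the values were seen, 1 chain, Itgae, was higher against 9.49% of all genes, and 1 chain, Itgb3, was lower against 8.04%. The other 7 chains lay within 1.5-fold, as did 82.5% of all genes, so these shares are of the size found across the array. As a measure of scatter within the arrays, probe sets that share a gene had log2 differences with a standard deviation of 0.40 around that gene's mean, from 8448 probe sets of 3305 genes. That value holds no variation between mice, sorts or hybridisations.

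**Figure D2:**
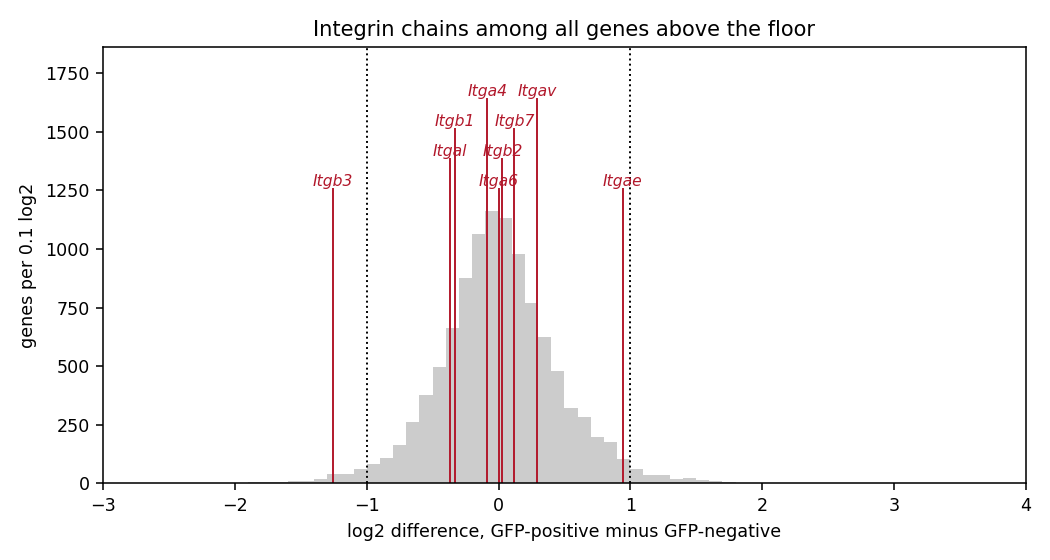
Histogram in grey of the log2 difference, GFP-positive minus GFP-negative, over the 10732 genes above the floor, in bins of 0.1, with red lines for the 9 chains above it and dotted lines at 2-fold. Itgae at 0.94 and Itgb3 at −1.26 stand in the tails, and the other 7 chains lie between −0.37 and 0.29.

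Itgae, which encodes alphaE (CD103), had signals of 1218 in GFP-positive cells against 634 in GFP-negative cells by probe set 1447541_s_at, a 1.92-fold difference of 0.94 log2. Its second probe set, 1449216_at, gave 1092 in GFP-positive cells against 641 in GFP-negative cells, or 1.70-fold and 0.77 log2. The _s_at ending of the first marks probes that can match several transcripts, and the second has no such mark. Both probe sets were higher in GFP-positive cells, and they differed from each other by 0.18 log2. The scatter within genes would give a gap between 2 probe sets a standard deviation of 0.57 log2. A difference at least as high as that of the brighter probe set was found for 2.50% of genes above the floor. Of the 3932 genes with a mean signal from 200 to 1000, 4.88% were at least 1.5-fold higher, and 95% had a difference below 0.58 log2. The genes whose difference was nearest to that of Itgae, over these 2 arrays and by the absolute gap in the log2 difference, were Trappc13 (0.94), Myo1e and Apbb3 (0.95 each). With only 2 arrays such nearness is that of a single number.

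Itgb7, the only partner of alphaE, differed little. Its probe set 1418741_at had 3696 in GFP-positive cells against 3402 in GFP-negative cells, 1.09-fold higher or 0.12 log2. The alphaE difference exceeded the beta7 difference by 0.82 log2. The scatter within genes alone would give a gap between 2 genes a standard deviation of 0.57 log2. Of 8 genes of CD8 T and NK cells, among which CD103 is also known, 5 were above the floor on at least 1 array, with 2 higher and 3 lower in GFP-positive cells. Higher were Gzma, with 1153 on the GFP-positive array against 850.5 on the GFP-negative array, and Klrd1, with 148.5 on the GFP-positive array against 103.5 on the GFP-negative array. Lower were Nkg7, with 724 on the GFP-positive array against 1222 on the GFP-negative array, Cd8b1, with 100.4 on the GFP-positive array against 115 on the GFP-negative array, and Prf1, with 48.1 on the GFP-positive array against 61.5 on the GFP-negative array. Cd8a, Ncr1 and Klra8 lay under the floor on both. The part of these cells in the Itgae difference was not tested. Sorted cells were measured in bulk, so more cells with the transcript and more transcript per cell cannot be told apart here or for any other chain.

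Itga4 encodes the alpha chain of both alpha4beta7 and alpha4beta1, and its probe sets gave different answers. The brightest, 1436037_at, had 418 in GFP-positive cells against 443 in GFP-negative cells, a difference of −0.08 log2. A dimmer one, 1456498_at, had 186 in GFP-positive cells against 106.5 in GFP-negative cells, 1.75-fold higher or 0.81 log2. The gap of 0.89 log2 between them was the widest among the 5 chains with more than 1 probe set above the floor on both arrays. The other 3 Itga4 probe sets lay under the floor on both arrays, with signals of at most 42.1 in GFP-positive cells against 48.4 in GFP-negative cells. No direction can be given for Itga4.

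The start regions of Itga4 and Itgb7 are printed because they encode the 2 chains of the gut-homing receptor alpha4beta7, whose brightest probe sets both differed by less than 1.1-fold. No array value measures a promoter, and the RefSeq promoter table of GRCm38.p6 used here held 5 of the 10 chains. Each sequence runs 5′ to 3′ on the gene's strand, from 250 bases before to 50 bases after the start, at chr2:79255176-79255475 on the plus strand for Itga4 and chr15:102231886-102232185 on the minus strand for Itgb7. Capitals mark matches, on either strand, to TGTGGT (the core bound by RUNX factors), TAAACA (forkhead factors), GGGCGG (the GC box of Sp and KLF factors) or CCGGAA (ETS factors).
Itga4: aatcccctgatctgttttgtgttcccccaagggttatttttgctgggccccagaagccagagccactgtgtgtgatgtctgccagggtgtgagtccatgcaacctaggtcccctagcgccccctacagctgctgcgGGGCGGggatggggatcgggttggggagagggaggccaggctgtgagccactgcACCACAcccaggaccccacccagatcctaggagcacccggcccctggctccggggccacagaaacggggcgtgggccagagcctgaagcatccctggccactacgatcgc
Itgb7: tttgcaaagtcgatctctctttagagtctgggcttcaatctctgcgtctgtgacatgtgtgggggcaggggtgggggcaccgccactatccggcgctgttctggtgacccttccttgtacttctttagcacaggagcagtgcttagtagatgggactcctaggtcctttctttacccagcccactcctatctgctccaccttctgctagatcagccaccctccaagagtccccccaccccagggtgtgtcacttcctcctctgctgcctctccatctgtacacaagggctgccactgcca
The Itga4 window holds 1 match each to the GC box and RUNX letters, which do not overlap, and the Itgb7 window holds 0 matches to the 4 motifs. Of all 32851 promoters in the table, 35.7% hold the GC box letters, 16.8% the RUNX, 14.9% the ETS and 13.4% the forkhead letters. A match is a description of letters, not of a bound site.

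Itgb1, the beta chain shared by alpha4, alpha6 and alphaV, had 2 bright probe sets that disagreed slightly. Probe set 1426918_at had 1185 in GFP-positive cells against 1489 in GFP-negative cells, 1.26-fold lower or −0.33 log2, and 1452545_a_at had 1136 in GFP-positive cells against 1116 in GFP-negative cells, 0.03 log2. Both stayed within the 0.40 scatter. A pair of dim probe sets was above the floor in GFP-positive cells only. These had 75.0 and 70.1 in GFP-positive cells against 22.4 and 29.4 in GFP-negative cells, at least 1.29-fold and at least 1.21-fold higher, and their _x_at endings mark probes that can match other transcripts. The remaining 2 probe sets were under the floor on both arrays. When all 6 were averaged, probe sets under the floor included, the GFP-negative mean lay under the floor and the Itgb1 difference became a bound of at least 0.56 log2. The direction therefore depends on how the dim probe sets are treated, and the background genes were also higher on the GFP-positive array.

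Itga6, the laminin-binding partner of beta1, was alike in both populations by its brightest probe set, with 932 in GFP-positive cells against 931 in GFP-negative cells, a difference of 0.0020 log2. Its other probe set, 1422444_at, had 420 in GFP-positive cells against 501 in GFP-negative cells, 1.19-fold lower or −0.26 log2.

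LFA-1 was read from 3 probe sets. Itgal, its alpha chain, had 1448 in GFP-positive cells against 1866 in GFP-negative cells by 1435560_at, 1.29-fold lower or −0.37 log2. A dimmer probe set, 1425367_at, had 100.4 in GFP-positive cells against 131 in GFP-negative cells, 1.31-fold lower or −0.39 log2. The Itgal probe sets lay 0.02 log2 apart, closer than those of any other chain with more than 1 above the floor on both arrays, but the size is within the 0.40 scatter and 17.4% of genes were at least as far below 0. The T cell markers were lower by a median of −0.23 log2 on the same array, and their part in the Itgal difference was not tested. Itgb2, the beta chain, which T cells use mostly with alphaL, had 3502 in GFP-positive cells against 3432 in GFP-negative cells, 0.03 log2. Bright genes scatter less than all genes together. Among the 1498 genes with a mean signal over 1000, 5% had a difference below −0.45 log2, which Itgal at −0.37 did not reach. Of these 1498 genes, 96.1% lay within 1.5-fold, as did Itgal, Itgb1, Itgb2 and Itgb7.

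Itgav, the alpha chain that pairs with beta1, beta3 and beta8, had 202 in GFP-positive cells against 165 in GFP-negative cells by 1452784_at, 1.22-fold higher or 0.29 log2, within the 0.40 scatter. Its other 4 probe sets were under the floor on both arrays, with signals between 20.3 and 47.6 in GFP-positive and between 2.8 and 44.6 in GFP-negative cells. Of the 76 background genes with a probe set, 0 reached the Itgav signal on the GFP-positive array and 1 did on the GFP-negative array.

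Itgb3, best known as the platelet and osteoclast beta chain and also found on some T cells, had 58.0 in GFP-positive cells against 139 in GFP-negative cells by 1455257_at, at least 2.39-fold lower or −1.26 log2. The GFP-positive signal lay just under the floor of 58.14. A difference at least as far below 0 was found for 0.717% of genes above the floor, but dim genes scatter more. Among 2993 genes with a mean signal of up to 200 and neither signal under the floor, 11.1% were at least 1.5-fold lower and 5% had a difference below −0.83 log2. The second Itgb3 probe set, 1421511_at, was under the floor at 8.2 in GFP-positive cells against 10.7 in GFP-negative cells, so the difference rests on 1 dim probe set. In the GFP-negative cells 1 of the 76 background genes had at least the Itgb3 signal, and in the GFP-positive cells 17 did. With the floor doubled the bound became −0.26 log2. Platelet markers were above the floor on at least 1 array in 4 of 11 cases, against 19 of the 76 background genes. Of these 4, 3 were lower and 1 was higher in GFP-positive cells. Pf4 had 20.2 on the GFP-positive array against 75.6 on the GFP-negative array, Gp1bb had 52.3 on the GFP-positive array against 78.7 on the GFP-negative array, and Itga2b, the platelet partner of beta3, had 96.1 on the GFP-positive array against 102.0 on the GFP-negative array. Treml1 was the higher one, with 79.1 on the GFP-positive array against 70.0 on the GFP-negative array, and the other 7, Gp9, Gp5 and Ppbp among them, were under the floor on both. The part of platelet RNA in the Itgb3 difference was not tested.

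Itgb8, the beta chain known for TGF-beta activation in dendritic cells and regulatory T cells, was not detectable above the floor, with 12.4 in GFP-positive cells against 3.3 in GFP-negative cells by its single probe set. No fold is given, since 56 of the 76 background genes reached that signal on the GFP-positive array against 65 on the GFP-negative array. Among genes that handle TGF-beta, Tgfb1, the cytokine released by alphaVbeta8, had 120.5 in GFP-positive cells against 72.8 in GFP-negative cells, 1.66-fold higher or 0.73 log2, and a second probe set was above the floor only in GFP-positive cells, at 65.0 against 6.9 in GFP-negative cells. Among the 2993 genes with a mean signal of up to 200 and neither signal under the floor, 13.8% were at least 1.5-fold higher. Of these genes, 95% had a difference below 0.87 log2, which Tgfb1 at 0.73 did not reach. Its second probe set lay close to the floor in GFP-positive cells, where the median background signal was 30.85 against 11.7 in GFP-negative cells. The part of this background in the Tgfb1 difference was not tested. Tgfb3 and Ltbp1 were under the floor on both arrays.

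**Figure D3:**
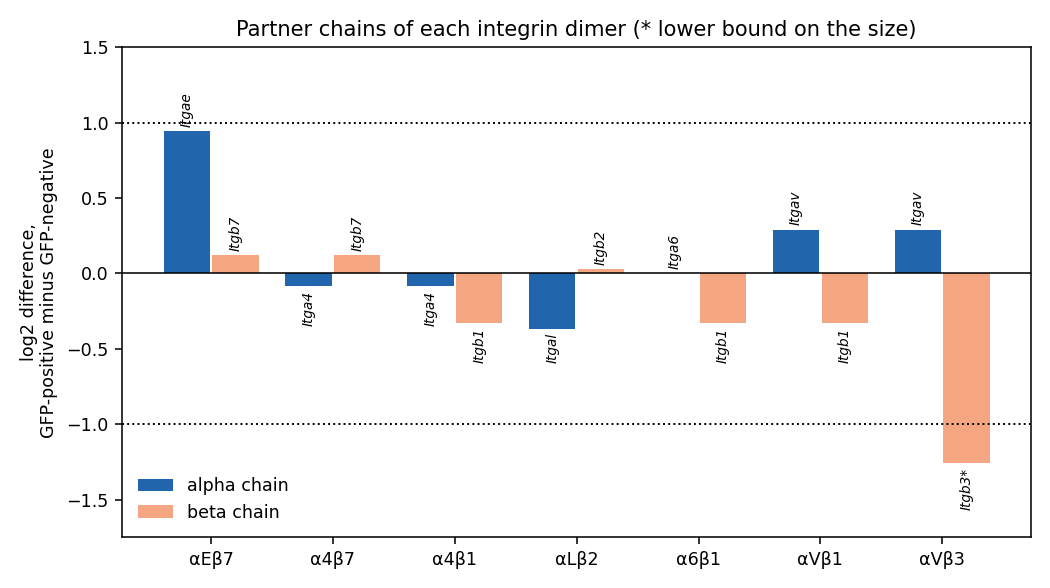
Log2 difference, GFP-positive minus GFP-negative, of the alpha chain (blue) and beta chain (orange) of 7 dimers, each gene by its brightest probe set, with dotted lines at 2-fold and an asterisk where the value is a lower bound on the size. Only alphaEbeta7 has a chain near 2-fold higher and only alphaVbeta3 a chain past 2-fold lower; the dimer with Itgb8, which was under the floor, is not drawn.

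Read as dimers by the brightest probe set of each gene, no pair could have both chains past 1.5-fold in the same direction. Only Itgae and Itgb3 passed that fold, in opposite directions. A dimmer Itga4 probe set, 1456498_at, was 1.75-fold higher and does not enter this reading. In alphaEbeta7 the alpha chain was higher and the beta chain was near 0, at 0.94 and 0.12 log2. In alpha4beta7 the brightest probe sets gave −0.08 for the alpha and 0.12 for the beta chain, and in alpha4beta1 −0.08 and −0.33. In LFA-1 the alpha chain was at −0.37 and the beta chain at 0.03. For alpha6beta1 the chains were at 0.0020 and −0.33, and for alphaVbeta1 at 0.29 and −0.33. The chains of alphaVbeta3 were 1.55 log2 apart, the widest gap of the 8 dimers, and that gap includes the bound of Itgb3. Differences of mRNA signals do not give the surface level of a dimer.

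Most other integrin chains lay near or under the floor. Of 14 with a probe set, among 16 listed, 10 were above the floor on at least 1 array and 3 on both, 6 were higher and 4 lower. In 0 of them did the fold, or the bound on it, reach 2-fold, but 7 are bounds whose fold may be larger. The background genes were likewise higher on the GFP-positive array. Itgb5, another partner of alphaV, had 68.1 in GFP-positive cells against 115 in GFP-negative cells, 1.69-fold lower or −0.75 log2, and a second probe set was at least 1.27-fold lower. Itga2, a collagen receptor chain, was at least 1.70-fold higher with 98.7 in GFP-positive cells against 13.7 in GFP-negative cells. Itga7, a laminin receptor chain of muscle, had 113 in GFP-positive cells against 77.8 in GFP-negative cells, 0.54 log2. Itga9 was at least 1.24-fold higher and Itgb6 at least 1.12-fold higher. The myeloid chains Itgam, with 64.9 in GFP-positive cells against 39.1 in GFP-negative cells, and Itgax, under the floor on both arrays, were dim. On at least 1 array 4 of 13 myeloid markers were above the floor, against 19 of the 76 background genes.

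Regulators of inside-out activation, by which the small GTPase Rap1, talin and kindlin open the integrin head, were listed with activators and inhibitors together, so their median has no functional direction. They gave lower signals in GFP-positive cells for 15 and higher signals for 5 of the 20 genes above the floor. Their median was −0.19 log2. Over all genes 50.8% were lower. The list does not mark inhibitors of Rap1 or of integrins, so their share among the lower genes was not counted. By their brightest probe sets, lower ones were Sipa1 at −0.72 log2, Sipa1l1 at −1.05, Rap1gap2 at −0.61, Sharpin at −0.36 and Itgb1bp1 at −0.26. Not every inhibitor was lower, since Cytip, also known to restrain LFA-1 adhesion, was higher at 0.14 log2. The T cell markers, at −0.23, lay below 0 by a like amount, and their part in this median was not tested. At least 2-fold lower was 1 of the 20, Sipa1l1, a member of the family of Rap GTPase-activating proteins, with 144 in GFP-positive cells against 299.7 in GFP-negative cells or −1.05 log2. A pair of dimmer Sipa1l1 probe sets went the other way, at 0.57 and 0.48 log2. Sipa1, which also switches Rap1 off, had 298 in GFP-positive cells against 489 in GFP-negative cells, 1.64-fold lower. Rap1gap2, another Rap GTPase-activating protein gene, had 167 in GFP-positive cells against 255.5 in GFP-negative cells, 1.53-fold lower. Tln1, which encodes talin, the protein that binds the beta chain tail, had 637 in GFP-positive cells against 988 in GFP-negative cells, 1.55-fold lower, but a dimmer probe set was 1.73-fold higher with 235 in GFP-positive cells against 136 in GFP-negative cells. Cyth1, which encodes cytohesin-1, a protein that binds the beta2 tail, went the other way with 1375 in GFP-positive cells against 809 in GFP-negative cells, 1.70-fold higher. The brightest members, Cytip, Rap1b and Rassf5, named after their values were seen, lay between −0.04 and 0.14 log2.

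Genes of integrin-linked signalling split evenly, with 10 of 20 higher and 10 lower, and their median was −0.0077 log2, which became 0.03 after quantile normalization. Zyx, which encodes the focal adhesion protein zyxin, had 329 in GFP-positive cells against 572 in GFP-negative cells, 1.74-fold lower or −0.80 log2, and a second probe set gave −0.60. Pxn, which encodes the adaptor paxillin that binds the alpha4 tail, had 934 in GFP-positive cells against 1509 in GFP-negative cells, 1.62-fold lower or −0.69 log2, and a second probe set above the floor gave −0.87. For these adaptors the probe sets above the floor went the same way. Bcar1, a docking protein of focal adhesions, had 116 in GFP-positive cells against 30.2 in GFP-negative cells, a bound of at least 1.99-fold higher, so that its fold may pass 2-fold. No other value or bound of the list reached 2-fold. The tetraspanin Cd9 had 346 in GFP-positive cells against 238 in GFP-negative cells, 0.54 log2. Cd151, a tetraspanin that binds laminin receptors, was 0.62 log2 higher by its brightest probe set but −0.26 and −0.59 log2 by others above the floor on both arrays.

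Among integrin ligands, 8 of 16 genes were above the floor on at least 1 array, 4 higher and 4 lower. Icam2, a ligand of LFA-1 that lymphocytes also carry, had 540.5 in GFP-positive cells against 787 in GFP-negative cells, 1.46-fold lower or −0.54 log2. Fn1, which encodes fibronectin, was at least 1.98-fold lower with 11.5 in GFP-positive cells against 115 in GFP-negative cells. Lama5, a laminin chain, was at least 1.34-fold higher and Vtn, which encodes vitronectin, at least 1.33-fold lower, both at dim signals. Cdh1, the E-cadherin ligand of alphaEbeta7, and Vcam1 were under the floor on both arrays.

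**Figure D4:**
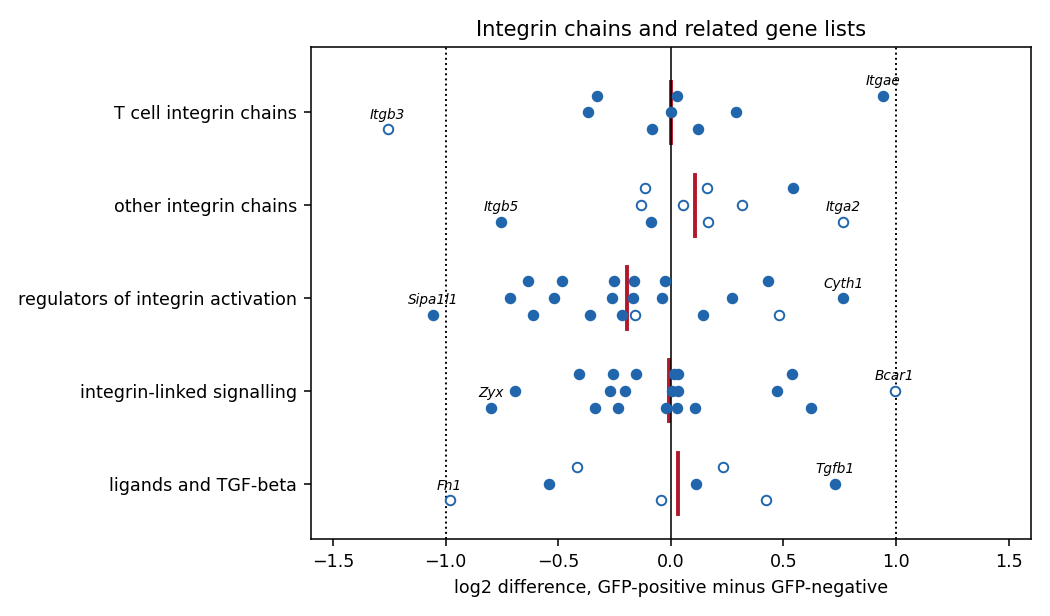
Log2 difference, GFP-positive minus GFP-negative, of each gene above the floor in 5 lists, filled where both signals were above the floor and open where the value is a bound, with red bars for list medians and dotted lines at 2-fold. The median of the regulators of integrin activation, activators and inhibitors together, lies at −0.19, and those of the other lists lie between −0.0077 and 0.11.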

How the data were processed

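The labels place 2 arrays in 2 groups of 1, with no further replicates. The deposited values are linear intensity values per probe set, which the authors made with MAS5, per the submitters' processing notes. Neither its version nor detection calls are named in the sources used here. The intensity values had been scaled by the authors to a common 2% trimmed mean, as the values show, and were not scaled again.

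Of 45101 probe sets, 932 had several gene symbols and 9211 had none, and neither entered. The platform annotation named the others, and updating through gene identifiers altered 0 symbols. The floor was the 90th percentile of the signals of 120 probe sets of 76 genes restricted to other tissues, of 81 listed. Represented by their brightest probe sets, 19 of those 76 genes lay above it on at least 1 array. Counts use a fixed fold of 2, with no test and no p-value, and the number of arrays limits the precision.

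The chains and all lists were chosen with earlier results of these data known. All chains were named, and from each of the 4 pathway lists the 5 measurable genes farthest from 0, unless stated otherwise. The steps were run on simulated data with large planted differences in genes well above the floor and little noise. That run checks the code only and bears on no value reported here. Alternatives were the floor, quantile normalization, loess with a span of 0.3, median centring, averaged probe sets and leaving out probe sets ending in _s_at or _x_at. Python 3.11.15, numpy 2.4.6, pandas 2.3.3 and statsmodels 0.14.6 were used.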

Additional observations from a re-analysis of the deposited data

How the results depend on the processing

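With all probe sets averaged, Itga4, Itgav and Itgb3 had both signals under the floor and gave no value, which left 6 chains. Doubling or dropping the floor cannot move a chain whose signals stay above it. Averaging cannot move a chain with 1 probe set, such as Itgb7 or Itgb2. Leaving out probe sets ending in _s_at or _x_at can move only Itgae, whose brightest probe set has such an ending. Some of the 42 values under the 5 alternatives other than the floor were thus fixed in advance. Of these 42, 41 moved by less than the within-gene standard deviation of 0.40 log2. The other one was Itgb1 with all probe sets averaged, a bound of at least 0.56. With the floor doubled the bound of Itgb3 became −0.26. The Itgae difference stayed between 0.77 and 0.99 log2 and that of Itgal between −0.38 and −0.32. The count of chains at least 2-fold lower was 0 instead of 1 with the floor doubled and with probe sets averaged, and the count at least 2-fold higher was 1 instead of 0 without a floor, which let in Itgb8. The median over the chains lay between 0.0020 and 0.07 log2. Without a floor, 18.2% of all genes were at least 2-fold higher and 13.3% at least 2-fold lower. The median of the activation regulators stayed between −0.24 and −0.15 log2. That of the signalling genes lay between −0.09, without probe sets ending in _s_at or _x_at, and 0.04, with the arrays centred on their medians. That of the ligands was −0.21 after loess and 0.58 without a floor, and that of the other integrins was 0.59 without a floor, while 0 of them were left with the floor doubled. With 1 array per population, differences between mice or sorts were not measured, and dim signals such as those of Itgb3 and Itgb8 limit what can be said of them.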
